A study of Mus musculus with 5 samples.

Results

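Red cell transcripts in the mouse kidney were described through 6 genes of the 54532 in the count table. They are found in the table by their symbols, and the set was chosen with earlier results of these data known. It holds the adult alpha-globin genes Hba-a1 and Hba-a2, the adult beta-globin genes Hbb-bs and Hbb-bt, the erythroid haem enzyme gene Alas2, and Bpgm. All 6 passed the filter on low counts, which kept 16226 genes. The samples were kidneys of wild-type C57BL/6J males aged 8 weeks. One group (3 libraries) was injected into the peritoneum with vehicle once a day for 3 days, and the other (2 libraries) with 10 mg/kg DMXAA on the same schedule, and tissue was taken on day 3. The compound DMXAA binds and activates STING in mice, an adaptor of cytosolic DNA sensing. Whether the numbered replicates are different animals is not stated in the labels, so p-values measure the spread between these samples. Whether blood was flushed from the kidneys is not given in the sources used here.

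Haemoglobin carries oxygen as a tetramer of alpha and beta chains, each holding a haem group. The chains and the haem are made in erythroid precursors of the bone marrow and spleen and in reticulocytes, the young red cells that have lost their nucleus but still hold RNA. In a solid organ such as the kidney, most globin RNA is generally taken to come from blood left in its vessels, while the kidney itself makes erythropoietin, the hormone that drives red cell production.

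The libraries held 17667490 to 20264228 counts, and a count of 0 allowed up to 0.149 to 0.171 CPM (counts scaled to a common library size), taking 3 counts as the limit and counting error only. The tissue label was met by kidney markers in every library: the summed level of 9 of them was 22700 to 27200 CPM, and none was at 0. Vehicle library 1 stood apart by adipose markers (8 genes, 905 CPM, while the remaining 4 libraries held 43.7 to 71.3 CPM) and urothelial markers (7 genes, 255 CPM, and 102 to 137 CPM elsewhere). All pairs of libraries differed by more than counting noise, with 7.35 to 38.5 for the chi-square over its degrees of freedom, so each was kept.

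The 4 globin genes and Alas2 were lower in both DMXAA kidneys than in all 3 vehicle kidneys, by 3.57- to 4.65-fold in the fit, while Bpgm did not differ beyond the spread between libraries. None of the 6 passed the test after adjustment over all genes (edgeR quasi-likelihood test, adjusted p = 0.724 to 0.973). That test called 0 of 16226 genes (0%), with 430 genes lower (2.65%) and 632 higher (3.89%) at an unadjusted p below 0.05, and DESeq2 called 58. Among tested genes, 12.3% had both DMXAA values below every vehicle value, and 13.7% had both above. The first share included 5 of the 6 members and the second none. Those 5 also had an unadjusted p below 0.05. In bulk tissue, fewer red cells and less RNA per red cell cannot be told apart.

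Hba-a1 encodes an alpha chain (ENSMUSG00000069919, mm10 chromosome 11 from 32283511 to 32284465, plus strand). Vehicle libraries 1, 2 and 3 held 136, 75.6 and 35.2 CPM, and DMXAA libraries 1 and 2 held 25.6 and 15.5 CPM. The groups did not overlap, but vehicle library 3 lay closer to DMXAA library 1 than to the other vehicle libraries. The means were 82.3 ± 50.8 CPM (SD, n = 3) and 20.6 ± 7.11 CPM (SD, n = 2), a log2 fold change of -2.005 (SE 0.56, edgeR adjusted p = 0.724, unadjusted p = 0.00922).

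Hba-a2, the neighbouring alpha-globin copy (ENSMUSG00000069917, chromosome 11 from 32296489 to 32297298, plus strand), was listed far lower. The vehicle kidneys gave 13.9, 10.1 and 3.22 CPM, and the DMXAA kidneys 2.89 and 1.49 CPM. The libraries stood in the same order as for Hba-a1, and the gap between vehicle library 3 and DMXAA library 1 was narrow, 58 against 52 counts. The log2 fold change was -2.06 (SE 0.64, edgeR adjusted p = 0.724, unadjusted p = 0.0155).

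Hbb-bs encodes an adult beta chain (ENSMUSG00000052305, chromosome 7 from 103826534 to 103828096, minus strand). Levels of 108, 69.5 and 29.4 CPM under vehicle stood against 19.8 and 10.1 CPM under DMXAA. It had the largest estimate of the 6, a log2 fold change of -2.22 (SE 0.57, edgeR adjusted p = 0.724, unadjusted p = 0.0064), with means of 69.1 ± 39.5 CPM (SD, n = 3) and 14.9 ± 6.86 CPM (SD, n = 2). Even so, the lowest vehicle library exceeded the highest DMXAA library by only 1.49-fold.

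Hbb-bt, the second adult beta-globin gene (ENSMUSG00000073940, chromosome 7 from 103812524 to 103813996, minus strand), gave 13.0, 9.61 and 2.61 CPM under vehicle, and 1.72 and 1.99 CPM under DMXAA. It was the 1 globin gene for which DMXAA library 2 was not the lowest, on 31 and 40 counts in the DMXAA pair. The log2 fold change was -2.17 (SE 0.65, edgeR adjusted p = 0.724, unadjusted p = 0.0132).

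Alas2 encodes the erythroid form of 5-aminolevulinate synthase, the first enzyme of haem synthesis (ENSMUSG00000025270, chromosome X from 150547375 to 150570638, plus strand). Its counts were 166, 95 and 51 in vehicle and 43 and 17 in DMXAA, or 8.97, 5.401 and 2.83 CPM against 2.39 and 0.846 CPM. The groups were again apart, by 1.19-fold between the nearest libraries. The log2 fold change was -1.83 (SE 0.61, edgeR adjusted p = 0.737, unadjusted p = 0.0214), and it was -2.74 without DMXAA library 1 and -1.26 without DMXAA library 2.

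Bpgm encodes bisphosphoglycerate mutase, which makes 2,3-bisphosphoglycerate, the red cell metabolite that lowers the oxygen affinity of haemoglobin (ENSMUSG00000038871, chromosome 6 from 34476207 to 34505613, plus strand). The 3 vehicle values were 57.0, 55.9 and 47.2 CPM and the 2 DMXAA values 52.6 and 56.0 CPM, so the groups overlapped. The log2 fold change was 0.025 (SE 0.11, edgeR adjusted p = 0.973), and the 6 differences between 1 DMXAA and 1 vehicle library ran from -0.12 to 0.25 on the log2 scale. Its counts, 851 to 1126 per library, therefore did not follow those of the globins and Alas2.

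**Figure D1:**
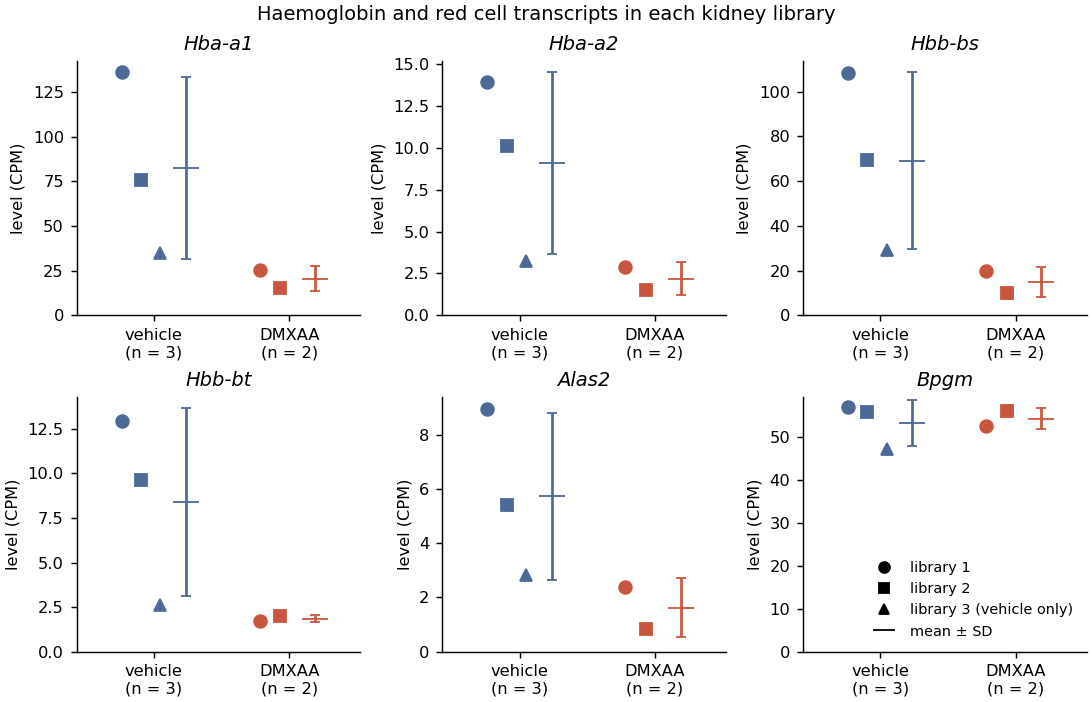
Level of each gene (CPM, axis from 0) in the 3 vehicle (blue) and 2 DMXAA (red) libraries, with the mean ± SD beside the points and marker shapes for library numbers. For the 4 globin genes and Alas2 the DMXAA points lie below all vehicle points, with vehicle library 3 nearest to them, while the Bpgm groups overlap between 47.2 and 57.0 CPM.

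Per kilobase of exon, Hba-a1 and Hbb-bs were the most abundant members. On the scale of CPM per kilobase, mean vehicle levels were 101 ± 62.6 for Hba-a1, 89.9 ± 51.4 for Hbb-bs, 14.9 ± 1.497 for Bpgm, 13.6 ± 8.12 for Hba-a2, 11.9 ± 7.53 for Hbb-bt and 2.39 ± 1.28 for Alas2 (SD, n = 3). Within each of the 5 libraries Hba-a1 was above Hbb-bs, by the least in vehicle library 2 (93.0 and 90.5), while Bpgm lay below both Hba-a2 and Hbb-bt in vehicle library 1 and above both in vehicle library 3. In DMXAA the levels were 25.3 ± 8.76 for Hba-a1, 19.4 ± 8.94 for Hbb-bs, 15.1 ± 0.679 for Bpgm, 3.28 ± 1.48 for Hba-a2, 2.64 ± 0.272 for Hbb-bt and 0.672 ± 0.453 for Alas2 (SD, n = 2). There Bpgm lay above Hba-a2 and Hbb-bt by more than the SDs.

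The levels of the copies depend on how shared reads were counted. The coding sequences of Hba-a1 and Hba-a2 differ at 1 of 429 bases, and those of Hbb-bs and Hbb-bt at 1 of 444. Of the 100-base windows of the longest annotated transcript, 56.5% in Hba-a1, 74.5% in Hba-a2, 62.6% in Hbb-bs and 54.8% in Hbb-bt occur unchanged in the partner's transcripts, and none in Alas2 or Bpgm occurs in any other gene. How reads matching both copies were treated is not given in the sources used here, so the split within a pair is uncertain. Gapdh, a glycolytic gene with many near-identical pseudogene copies, had 3809 counts in vehicle library 2 and 91 to 158 counts in each of the rest, and whether shared reads were treated alike in all libraries was not tested. Without vehicle library 2 the log2 fold changes were -2.06 for Hba-a1, -1.97 for Hba-a2, -2.21 for Hbb-bs and -2.06 for Hbb-bt. Adding the counts of a pair into 1 row gave a log2 fold change of -2.01 (SE 0.56, edgeR adjusted p = 0.726) for alpha globin and -2.21 (SE 0.56, edgeR adjusted p = 0.726) for beta globin.

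Summed over the 4 genes, globin took 5022, 2898 and 1270 counts under vehicle and 900 and 584 counts under DMXAA, or 0.0284%, 0.0156% and 0.00717% of all counts against 0.00495% and 0.00288%. The mean was 169 ± 101 CPM in vehicle (SD, n = 3) and 39.5 ± 14.8 CPM in DMXAA (SD, n = 2), 4.28-fold lower. This ratio is a description with no test, since the 4 genes were chosen together. The vehicle libraries alone spanned 3.85-fold.

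The proportions among the globins varied far less than their level. Hba-a1 made up 88.2% to 91.6% of alpha-globin counts over the 5 libraries, and the DMXAA values, 89.9% (95% Clopper-Pearson interval 86.9% to 92.3%, counting error only) and 91.2% (87.7% to 94.0%), lay within the vehicle range. Hbb-bs made up 87.9% to 91.9% of beta-globin counts in vehicle. In DMXAA it made up 92.0% (88.8% to 94.5%) and 83.5% (78.2% to 87.9%), so the DMXAA pair differed from each other beyond counting error. Alpha globin was 55.3%, 52.0% and 54.6% of all globin counts in vehicle and 57.0% (53.7% to 60.3%) and 58.6% (54.4% to 62.6%) in DMXAA. Both DMXAA shares were above the vehicle shares, but the interval of DMXAA library 1 overlapped all 3 vehicle intervals (53.9% to 56.7%, 50.2% to 53.8% and 51.8% to 57.3%), and that of library 2 overlapped those of vehicle libraries 1 and 3.

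Alas2 was also set against globin within each library. Per 100 globin counts there were 3.31, 3.28 and 4.02 Alas2 counts in vehicle and 4.78 and 2.91 in DMXAA. As a share of Alas2 and globin counts together the DMXAA values were 4.56% (95% Clopper-Pearson interval 3.32% to 6.09%) and 2.83% (1.66% to 4.49%), on either side of the vehicle range of 3.17% to 3.86%. A difference in this proportion between the groups was not detectable at this depth.

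The vehicle kidneys differed among themselves by about as much as the group means did. The ratio of the highest to the lowest vehicle library was 3.87 for Hba-a1, 4.32 for Hba-a2, 3.69 for Hbb-bs, 4.98 for Hbb-bt and 3.17 for Alas2, against 1.21 for Bpgm and a median of 1.29 over all tested genes. Ratios as large as these were found in 2.80% to 5.95% of tested genes for the first 5 and in 63.6% for Bpgm. Between the DMXAA libraries the ratio was 1.65 for Hba-a1, 1.93 for Hba-a2, 1.97 for Hbb-bs, 1.157 for Hbb-bt and 2.82 for Alas2, against a median of 1.099. Hba-a1, Hba-a2, Hbb-bs and Alas2 all stood in the order vehicle 1, vehicle 2, vehicle 3, DMXAA 1, DMXAA 2 from high to low, an order found in 1.06% of tested genes. The step between the groups was small, since vehicle library 3 was within 1.11- to 1.49-fold of the higher DMXAA library for the 4 globins.

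**Figure D2:**
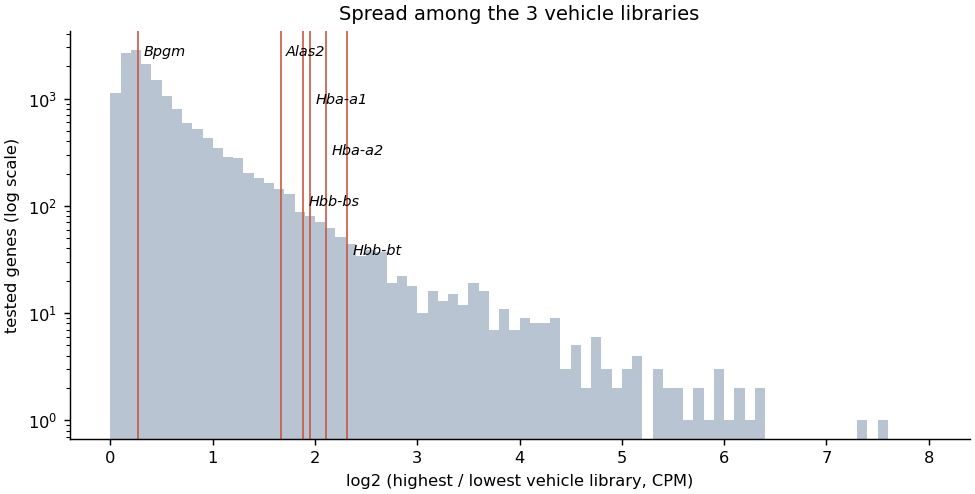
Number of tested genes (log axis) by the log2 ratio of the highest to the lowest vehicle library, for the 16191 genes with no vehicle library at 0 (1 gene lies beyond the axis); red lines mark the members. Bpgm sits in the bulk of the distribution near the median ratio of 1.29, and the other 5 lie in its upper tail at ratios of 3.17 to 4.98.

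The direction did not depend on a single library for the 4 globins and Alas2, although their tests did. At an unadjusted p below 0.05, 5 members were lower without any 1 vehicle library (background 4.64%, 5.08% and 1.97% of tested genes without libraries 1, 2 and 3), 4 without DMXAA library 1 (background 1.36%) and 1, Hbb-bs, without DMXAA library 2 (background 0.626%). With robust empirical Bayes 3 were lower, Hba-a2, Hbb-bt and Alas2 (background 2.63%). Without vehicle library 1, the library rich in adipose markers, the log2 fold changes were -1.44 for Hba-a1, -1.62 for Hba-a2, -1.74 for Hbb-bs, -1.72 for Hbb-bt and -1.36 for Alas2. With no expression filter, edgeR called Hba-a1 (adjusted p = 0.041) and Hbb-bs (adjusted p = 0.0312), 2 of the 5 lower genes it called then (0.0178% of 28037). Over all other settings except the block by replicate number their adjusted p ran from 0.215 to 1. DESeq2 called none of the 6 (adjusted p from 0.0627 for Hbb-bt to 0.999 for Bpgm), with 9 genes called lower (0.0628% of the 14335 given an adjusted p).

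**Figure D3:**
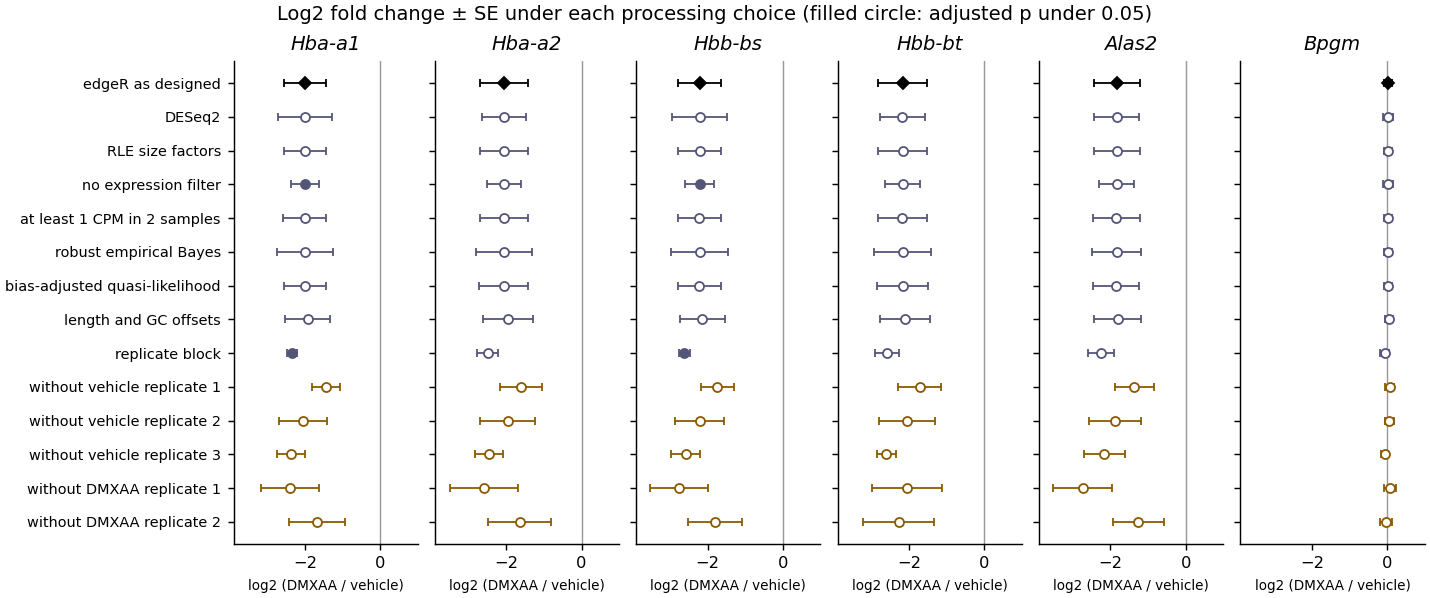
Log2 fold change of DMXAA over vehicle (± SE) for each member under the designed fit (diamond) and 13 alternatives, with filled circles where the adjusted p was below 0.05. The estimates of the globins and Alas2 stay between -2.77 and -1.26 and those of Bpgm between -0.06 and 0.08.

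The globin transcripts are short, and fold changes in these libraries varied with transcript length. Tested genes of up to 1000 bases (488 genes with an average log2 CPM above 3) had a median log2 fold change of -0.12, and those over 8000 bases (659 genes) one of 0.10. The trend was largest in vehicle library 2. Relative to each gene's mean over the 5 libraries, its median log2 level was 0.186 for the shortest genes and -0.153 for the longest. The rest held -0.0788 to 0.0194 and 0.00369 to 0.0708. With each library's trend on length and GC content removed, the log2 fold changes were -1.93 for Hba-a1, -1.959 for Hba-a2, -2.15 for Hbb-bs, -2.11 for Hbb-bt, -1.80 for Alas2 and 0.05 for Bpgm.

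For some of the members, the stretch before the start site is shown, where erythroid factors are known to bind. The 150 bases upstream of the RefSeq start (GRCm38.p6, the assembly of mm10) are printed 5′ to 3′ on the gene's strand. They belong to an alpha globin, a beta globin and Alas2, at chr11:32296342-32296491 (plus strand), chr7:103827929-103828078 (minus strand) and chrX:150547267-150547416 (plus strand). Distances are counted from the RefSeq start, which differs from the gene coordinates given above. By those coordinates the Hbb-bs window lies within the gene, and the Alas2 window runs past the gene's start. Capitals mark GATAA (the core bound by GATA factors, read as TTATC on the other strand), CACCC (bound by Krüppel-like factors, with GGGTG as its complement), CCAAT (complement ATTGG) and TATAA (complement TTATA).
Hba-a2: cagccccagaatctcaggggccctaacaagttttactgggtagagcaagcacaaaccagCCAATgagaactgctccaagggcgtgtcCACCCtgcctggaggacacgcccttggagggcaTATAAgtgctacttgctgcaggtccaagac
Hbb-bs: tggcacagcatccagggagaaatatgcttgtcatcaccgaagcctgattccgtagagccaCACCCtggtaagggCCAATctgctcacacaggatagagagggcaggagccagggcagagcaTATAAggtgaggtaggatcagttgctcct
Alas2: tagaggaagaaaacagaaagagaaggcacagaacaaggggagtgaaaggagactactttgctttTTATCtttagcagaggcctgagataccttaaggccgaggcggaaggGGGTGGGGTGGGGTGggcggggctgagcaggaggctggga
The 250 bases upstream of Hba-a1 match those of Hba-a2 without a difference once shifted by 3 bases. Within 250 bases, each of the 4 globin promoters holds all 4 motifs, which 0.968% of 32851 promoter windows of that length do. Since the alpha promoters match each other, the 4 are not independent cases, and enrichment was not tested. A TATAA begins 27 to 30 bases before the start in all 4 globin genes, and a GATAA 182 to 209 bases before it. Alas2 holds a GATAA on the opposite strand 86 bases before its start, 3 copies of CACCC on the opposite strand within 40 bases, no CCAAT, and a TATAA only 207 to 208 bases away, where the copies on the 2 strands overlap. Bpgm holds 3 copies of CCAAT and none of the other motifs in its window. Among all windows, 22.6% hold GATAA, 52.0% CACCC, 33.8% CCAAT and 22.8% TATAA on either strand. These matches describe letters in a window and were not tested for binding or for a relation to the fold changes.

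Other genes of red cell biology did not share the pattern as groups. Medians of the log2 fold change are given over each list's tested genes other than the members, beside a median of -0.01 over all tested genes, and edgeR called 0 genes of any list. Embryonic and other globin genes were almost silent: of 8 in the table, 7 had 0 counts in every library and the theta-globin gene Hbq1b had 2 counts in vehicle library 1.

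Haem synthesis genes other than Alas2 had a median of -0.04 (11 tested, 8 with estimates below 0). The groups were apart for 1 gene upwards and 1 downwards, beside 13.7% and 12.3% of all tested genes. Alas1, the housekeeping counterpart of Alas2, held 147, 226 and 200 CPM under vehicle, and 270 and 369 CPM under DMXAA, a log2 fold change of 0.74 (SE 0.21, edgeR adjusted p = 0.724, unadjusted p = 0.00997). The ratio of Alas1 to Alas2 was 16.3, 41.8 and 70.6 in vehicle and 113 and 436 in DMXAA. Since each gene's groups were already apart, in opposite directions, the ratio could not overlap and adds no separate support.

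Red cell membrane and skeleton genes had a median of -0.14 (11 tested, 6 below 0), and 1 of them was lower and 2 higher at an unadjusted p below 0.05. Ank1, which encodes the ankyrin that ties the membrane to spectrin, held 1.84, 0.455 and 0.776 CPM under vehicle, and 0.222 and 0.348 CPM under DMXAA, on 4 to 34 counts. Epb42, encoding protein 4.2, had higher values under DMXAA, on 13, 20 and 36 counts against 45 and 68, as did Dmtn (dematin, an actin-bundling protein), at 153 ± 19.5 CPM (SD, n = 3) and 197 ± 26.8 CPM (SD, n = 2). Slc4a1, the anion exchanger of red cells that kidney intercalated cells also make, was at 59.2 to 95.3 CPM in every library. Rhag, the Rh-associated glycoprotein gene and closer to red cells alone, was near the detection limit, with 8, 3 and 5 counts under vehicle and 0 and 2 under DMXAA.

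Reticulocyte and late erythroblast genes had a median of 0.02 (11 tested, 5 below 0), with 1 gene lower and 1 higher at an unadjusted p below 0.05. Tfrc, the transferrin receptor through which cells import iron, was at 109, 125 and 98.6 CPM under vehicle, and 82.3 and 74.4 CPM under DMXAA, a log2 fold change of -0.50 (SE 0.12, edgeR adjusted p = 0.724, unadjusted p = 0.00545). Xpo7, a nuclear transport gene, was at 85.2 ± 4.24 CPM (SD, n = 3) and 105 ± 4.20 CPM (SD, n = 2). The erythroid marker genes Hemgn, Tspo2 and Trim10 had at most 2 counts in any library.

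Erythroid transcription factors and receptors had a median of -0.09 (7 tested, 4 below 0), and none had an unadjusted p below 0.05. Gata1, the master factor of the lineage, had 1 count in vehicle library 1 and 0 in the other libraries. The 2 most abundant genes of the list were Ldb1 (60.3 ± 1.45 and 53.8 ± 3.75 CPM), a cofactor of erythroid complexes, and the receptor gene Kit (18.5 ± 2.11 and 17.4 ± 0.526 CPM), both also made outside the lineage.

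Around Bpgm, the other 2,3-bisphosphoglycerate and glycolysis genes had a median of -0.04 (8 tested, 5 below 0). Its relative Pgam1 overlapped between the groups, at 218 to 247 CPM with vehicle and 221 and 244 CPM with DMXAA. Pklr, the pyruvate kinase gene used in red cells, liver and kidney, gave 22.3, 28.3 and 26.0 CPM under vehicle, and 31.6 and 37.6 CPM under DMXAA, a log2 fold change of 0.44 (SE 0.14, edgeR adjusted p = 0.724, unadjusted p = 0.0153).

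On the demand side, erythropoietin and hypoxia response genes had a median of -0.10 (9 tested, 6 below 0), and none had an unadjusted p below 0.05. Its 2 most abundant genes were Vegfa, a hypoxia-induced vessel growth factor (230 ± 10.6 and 206 ± 3.91 CPM), and Epas1, the hypoxia-inducible factor that drives Epo (164 ± 16.9 and 179 ± 1.14 CPM). Epo itself, under the filter on low counts, had 4, 8 and 6 counts in vehicle and 9 and 12 in DMXAA, or 0.216 to 0.455 CPM against 0.499 and 0.597 CPM. Haemoglobin and haem clearance genes had a median of 0.22 (9 tested, 4 below 0). Cubn, which encodes cubilin, a proximal tubule receptor that takes up filtered haemoglobin among other proteins, gave 368, 437 and 393 CPM under vehicle, and 486 and 510 CPM under DMXAA, a log2 fold change of 0.32 (SE 0.12, edgeR adjusted p = 0.741, unadjusted p = 0.0288). Hmox1, the inducible haem oxygenase, overlapped between the groups (22.6, 42.8 and 29.6 CPM against 37.7 and 36.1 CPM).

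**Figure D4:**
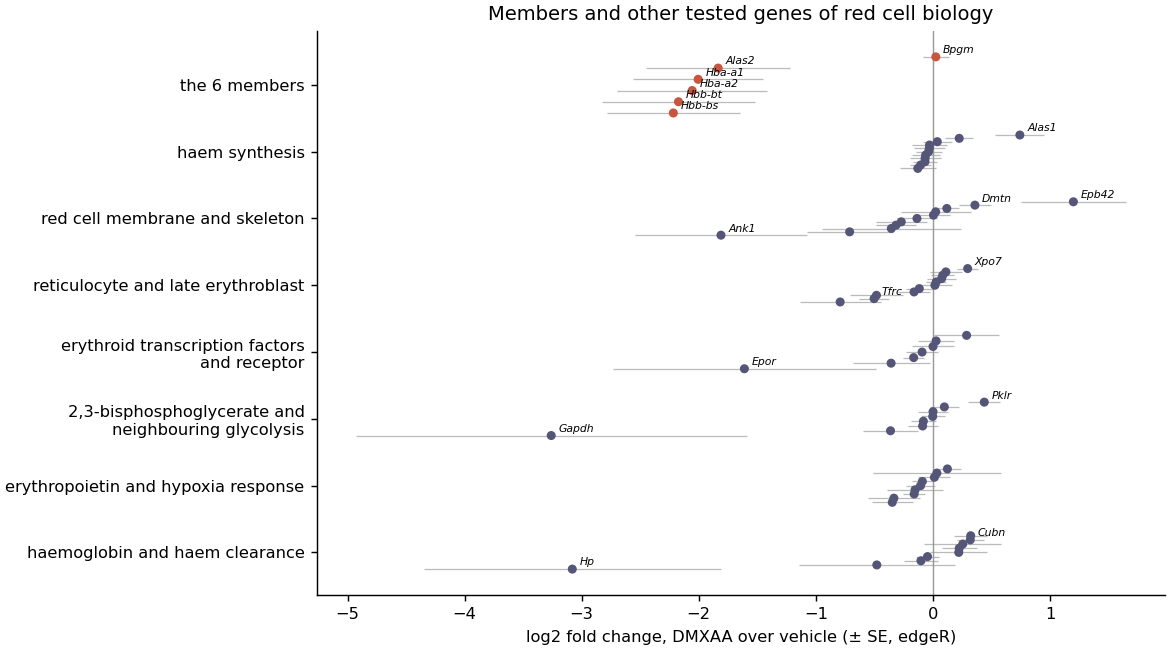
Log2 fold change (± SE, edgeR) of the 6 members (red) and of the tested genes of 7 lists on red cell biology (blue-grey); named points had an unadjusted p below 0.05 or lay beyond 1 in either direction. The globins and Alas2 lie between -2.22 and -1.83, while list medians lie between -0.14 and 0.22.

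Markers of several other blood cells also had estimates below 0, in library patterns that differed from one list to the next. All tested platelet (5 of 5), neutrophil (6 of 6) and B and plasma cell markers (7 of 7) had log2 fold changes below 0, with medians of -0.43, -1.54 and -1.47, beside 8612 of 16226 tested genes. Summed neutrophil markers (13 genes, Elane at 0 everywhere) were lowest where globin was highest: vehicle libraries 1, 2 and 3 held 5.14, 23.9 and 61.7 CPM, and the DMXAA libraries 6.60 and 9.15 CPM. The 2 most abundant of them, the calprotectin genes S100a9 and S100a8, showed the same low values in vehicle library 1 (1.14 and 1.03 CPM) and high values in vehicle library 3 (23.1 and 21.2 CPM). Summed platelet markers (12 genes, Gp1bb at 0 everywhere) held 20.3, 13.4 and 14.4 CPM under vehicle, and 10.5 and 12.1 CPM under DMXAA. The sums did not overlap between the groups. Of the 5 tested platelet markers only 1, Itga2b, lay apart downwards, as did 12.3% of all tested genes. The sum was highest in vehicle library 1, where Nrgn alone held 7.19 CPM, against 1.19 to 1.78 CPM in each other library. Itga2b, which encodes the platelet integrin alpha-IIb, was the most abundant platelet marker. It had 187, 166 and 167 counts under vehicle, and 112 and 161 under DMXAA (edgeR adjusted p = 0.741, unadjusted p = 0.0487). B and plasma cell markers (13 genes) summed to 23.4, 17.8 and 43.0 CPM against 24.1 and 8.16 CPM, and overlapped, with Ighm and Igkc the most abundant. Within that list 3 tested genes, Ighd, Cd22 and Ms4a1, lay apart in the same direction as the globins and had an unadjusted p below 0.05. Among all tested genes 12.3% lay apart in that direction, and 2.65% were lower at that edgeR p. The other tested genes of the list, Ighm and Igkc among them, overlapped between the groups. Ighd, the heavy chain gene of naive B cells, had 14, 15 and 17 counts under vehicle, and 0 and 1 under DMXAA (edgeR adjusted p = 0.535, unadjusted p = 0.000686). Cd22, a B cell receptor inhibitor, had 11, 11 and 12 counts against 3 and 2, and Ms4a1, which encodes CD20, had 7, 14 and 12 against 5 and 1. Endothelial markers (12 genes), which stand for the vessels that hold blood, summed to 1000, 665 and 937 CPM under vehicle, and 945 and 1020 CPM under DMXAA, and overlapped. Summed markers of T and NK cells and of monocytes and macrophages also overlapped between the groups. Gene by gene, 2 of 13 T and NK cell markers lay apart downwards and 2 upwards. Of 12 monocyte and macrophage markers, 1 lay apart downwards. Over all tested genes these shares were 12.3% downwards and 13.7% upwards. The part of adipose, platelet and leukocyte content in the globin values was not tested.

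**Figure D5:**
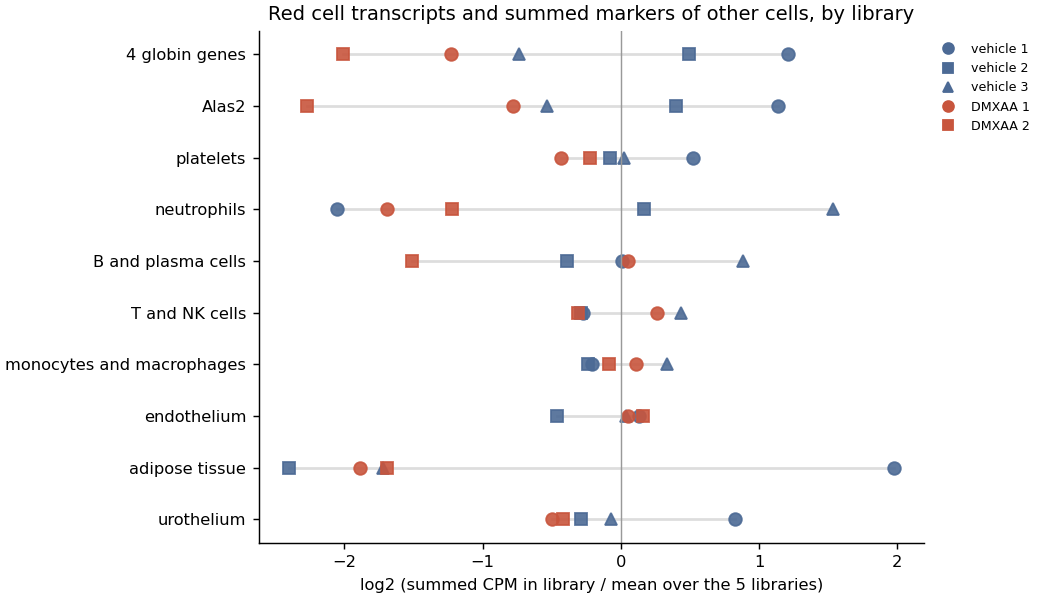
Log2 of each library's level relative to the mean of the 5 libraries, for summed globin, Alas2 and the summed markers of 8 other cell types or tissues; shapes and colours mark the libraries. Globin and Alas2 share 1 order of libraries, neutrophil markers are lowest in vehicle library 1 (5.14 CPM), and adipose markers are highest there (905 CPM).

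Likeness to the globins was measured as the root mean square difference, over the 5 libraries, between a gene's centred log2 level and the mean of the 4 globins. Alas2 was the nearest of the 16222 other tested genes, at 0.287, against a median of 1.11 over all. Bpgm ranked 5223 at 1.07. Among the nearest genes outside the members were Cd209a (0.582), Megf11 (0.582), Apol11b (0.604), D430018E03Rik (0.607), Pde1c (0.613), Arxes2 (0.632) and Sh2b2 (0.633), so a wide gap separated Alas2 from them. Of these 7, all but Pde1c had at most 82 counts in any library. With 5 libraries, this ranking is a description.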

How the data were processed

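Kidney RNA of 3 vehicle and 2 DMXAA samples was sequenced. The values deposited by the authors are raw read counts per Ensembl gene ID. Tools credited to the submitters' processing notes are Subread, featureCounts, HISAT2 and DESeq2 1.16.1, with build mm10. Sources used here do not give their roles, the annotation, the strand setting or the handling of multi-mapping reads, so overlapping or antisense genes cannot be told apart. The labels' protocols name 2 library kits, with no assignment to samples. Columns CO and XA were read as vehicle and DMXAA from their names.

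GENCODE M21 gave symbols for 99.9% of IDs, with coordinates and lengths. Counts were tested with edgeR 4.0.16 (R 4.3.3): TMM scaling, default filter, two-sided quasi-likelihood F test on group, Benjamini-Hochberg over all 16226 tested genes, called below 0.05. CPM use effective library sizes. The likeness measure used log2(CPM + 0.5). On simulated counts for these genes the fit recovered 58 of 100 genes with a 2-fold change and 93 of 100 with a 4-fold change. It called 15 of 16026 unchanged genes. The changed genes were drawn at random from those with a log2 CPM above 1, without the members, each at its own fitted dispersion. These rates therefore do not give the recovery for the globins and Alas2, which varied more between vehicle libraries than most genes.

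Members and lists were chosen with earlier results of these data known. Named list genes had groups apart and an unadjusted p below 0.05, or else were the 2 most abundant of their list; of the marker lists, the text gives sums and few of these. Gapdh, Rhag, Slc4a1, Gata1, Hemgn, Tspo2, Trim10, Pgam1, Epo, Hmox1, Hbq1b, Elane, Gp1bb and Nrgn were named after their values were seen. Alternatives were DESeq2 1.42.0, RLE factors, no filter, a filter of 1 CPM in 2 samples, robust and bias-adjusted fits, length and GC offsets, copies added together, a block by replicate number, and each library left out. Promoter sequences are from RefSeq (GRCm38.p6, all 6 members matched). Results for some genes are not reported here.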

Additional observations from a re-analysis of the deposited data

How the results depend on the processing

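The log2 fold changes of the 4 globins and Alas2 were below 0 under every alternative run. With 1 library left out they ran from -2.40 to -1.44 for Hba-a1, -2.59 to -1.62 for Hba-a2, -2.77 to -1.74 for Hbb-bs, -2.60 to -1.72 for Hbb-bt and -2.74 to -1.26 for Alas2, and the summed globin log2 ratio from -2.53 to -1.58 (-2.10 with all 5). A group left with 1 library is assumed to vary like the other group. Bpgm had no stable direction, at -0.057 to 0.077 with 1 library left out and -0.057 with the block. The count of genes called over all genes was 0 with all 5 libraries and 0 to 2 with 1 left out, but 58 with DESeq2, 34 with no expression filter and 4 with the replicate number as a block; the cause was not tested. Hba-a1 passed the threshold with no filter (-2.003) and with the block (-2.35, adjusted p = 0.0311), as did Hbb-bs (-2.22 and -2.62, adjusted p = 0.0311). The labels do not say that numbers pair samples, and same-numbered libraries deviated together only weakly (correlations of 0.0748 and 0.0809 over 2 pairs), so the block rests on a shared number. Counting depth limits Alas2, Hba-a2 and Hbb-bt in DMXAA, at 17 to 52 counts each.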

Other observations

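Epor and Hp, from the lists above, stood far higher in vehicle library 1 than in the rest. They were singled out after their values were seen and were not the only such genes. Nrgn and the summed adipose and urothelial markers were also highest there, at 7.19, 905 and 255 CPM. Epor, the erythropoietin receptor gene, reached 16.4 CPM in vehicle library 1, while the remaining 4 held 0.967 to 2.49 CPM. Hp, which encodes the haemoglobin-binding plasma protein haptoglobin, reached 27.3 CPM there, while the remaining 4 held 0.995 to 3.66 CPM.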
